A study of Homo sapiens with 40 samples.

Results

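The circadian clock genes PER1, PER2, PER3, CRY1, CRY2, BHLHE40, BHLHE41, NR1D1, NR1D2 and DBP were followed by RNA sequencing in a pair of breast cancer cell lines given EGF or heregulin (HRG). The 10 members are the rows of the count table whose gene name equals one of these symbols, 10 of the 44584 names it holds. No cut on measured values selected them, but the list was chosen with earlier results of these data known. BT474 is a HER2-positive line that responds to the HER2 antibody trastuzumab, and BT474R is its resistant derivative, a single clone that was grown out of BT474 under trastuzumab. Cells of both lines were starved in medium with 0.1% serum and collected (T0), or were moved to fresh medium of that kind to which EGF (50 ng/mL), HRG (10 ng/mL) or, for vehicle, water was added, and collected 1 h, 12 h or 24 h later. This gives 10 groups per line and 20 in all, each with 2 libraries, or 40 libraries. Treatments were made in duplicate, and the libraries of a group carry only a replicate number. Whether the duplicates came from cultures grown apart or on other days is not stated, so the p-values below measure the spread between these libraries, which may be largely technical. With T0 and 3 later time points within 24 h, no test of a rhythm was made.

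The mammalian clock is a feedback loop of transcription. CLOCK, or its relative NPAS2, pairs with BMAL1 (named ARNTL in the count table) and binds E-boxes to switch on the PER and CRY genes, whose protein products assemble, return to the nucleus and inhibit their own activators. BHLHE40 and BHLHE41 (DEC1 and DEC2) bind the same E-boxes as repressors, NR1D1 and NR1D2 (REV-ERB alpha and beta) repress BMAL1 through ROR elements, and DBP is an E-box target that activates genes through D-boxes. Most tissues, the mammary gland among them, hold such a clock, and in cultured cells serum and growth factors are known to induce PER1 and PER2 within an hour, in part through CREB at cAMP response elements (CREs), and to shift the phase of the clock.

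The promoter windows of 4 members are given here as RefSeq holds them for GRCh38.p14, the 250 bases before the annotated start, 5′ to 3′ on the gene's strand: PER1 and PER2 since they rose together at 1 h, BHLHE40 since it had the largest differences, and PER3 as the member with a D-box. Capitals mark matches to an E-box (CACGTG), a CRE core (TGACG), a D-box (TTATGTAA) or a ROR element (AGGTCA), each searched on both strands, and the full CRE (TGACGTCA, which holds the core) was searched as well.
PER1: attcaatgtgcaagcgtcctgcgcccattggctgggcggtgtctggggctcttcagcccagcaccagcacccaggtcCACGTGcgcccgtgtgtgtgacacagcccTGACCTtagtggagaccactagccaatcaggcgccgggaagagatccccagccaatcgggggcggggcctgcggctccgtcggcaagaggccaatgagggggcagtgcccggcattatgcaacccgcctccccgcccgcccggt
PER2: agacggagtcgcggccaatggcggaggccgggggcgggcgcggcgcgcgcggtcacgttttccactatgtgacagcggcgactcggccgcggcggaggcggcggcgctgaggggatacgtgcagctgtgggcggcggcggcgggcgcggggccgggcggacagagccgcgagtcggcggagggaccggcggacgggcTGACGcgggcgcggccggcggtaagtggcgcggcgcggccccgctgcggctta
PER3: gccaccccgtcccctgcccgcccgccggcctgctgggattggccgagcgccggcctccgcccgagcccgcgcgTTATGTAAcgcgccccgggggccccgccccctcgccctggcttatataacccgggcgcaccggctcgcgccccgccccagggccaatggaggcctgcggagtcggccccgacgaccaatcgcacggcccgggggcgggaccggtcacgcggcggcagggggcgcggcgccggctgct
BHLHE40: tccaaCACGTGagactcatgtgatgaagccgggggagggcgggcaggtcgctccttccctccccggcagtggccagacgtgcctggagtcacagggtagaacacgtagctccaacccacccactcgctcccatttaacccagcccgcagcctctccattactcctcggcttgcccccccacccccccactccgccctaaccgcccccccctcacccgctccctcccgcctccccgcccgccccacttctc
The PER1 window (chr17:8152405-8152654, minus strand) holds an E-box starting 173 bases before the start, and a ROR element on the other strand at 144 bases. The PER2 window (chr2:238288611-238288860, minus strand) holds a CRE core at 53 bases, and its start is one that lies inside the annotated span of the gene. The PER3 window (chr1:7784041-7784290, plus strand) holds a D-box at 177 bases, and the BHLHE40 window (chr3:4979187-4979436, plus strand) an E-box at 245 bases. Of the members not printed, BHLHE41 has an E-box, CRY1 a CRE core, and CRY2 a CRE core and a ROR element, while none of the 5 motifs was matched in the windows of NR1D1, NR1D2 and DBP. Among 27305 promoter windows of this length, 6.49% hold the E-box, 21.66% the CRE core, 1.765% the full CRE, 0.8606% the D-box and 12.14% the ROR element. These are matches of letters and say nothing about which factors bind.

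Between 19200632 and 29098915 reads per BT474 library and between 16794594 and 33387936 per BT474R library were counted on genes, and levels are given as CPM, read counts scaled to a common library size, after TMM scaling over all libraries. A gene with 3 counts in a library is at no more than 0.156 CPM in BT474 and 0.179 CPM in BT474R, for counting error only, and each of the 10 members lay above that in every library and was tested in every fit. EGR1, an immediate early gene, checked that the ligands acted: at 1 h its log2 fold change against vehicle was 3.75 in EGF-BT474, 4.04 in HRG-BT474, 3.77 in EGF-BT474R and 3.03 in HRG-BT474R. Luminal markers were high in both lines, ERBB2 at 6078 to 10648 CPM, except that GATA3 lay between 10.4 and 55.3 CPM in BT474R against 311 to 547 CPM in BT474. Of the 3 fibroblast markers, COL1A1 was at 74.8 to 105.9 CPM in BT474 and 171 to 287 CPM in BT474R while COL3A1 stayed at or below 0.740 CPM and DCN at or near 0, and the leukocyte markers PTPRC and CD3E were at or near 0, with LYZ at no more than 1.43 CPM. Of the 2 endothelial markers, PECAM1 reached 0.218 CPM at most, while VWF was at 12.9 to 23.2 CPM in BT474 and 8.55 to 15.9 CPM in BT474R. Replicates differed most in BT474R at 24 h, in the HRG and the vehicle pair. In bulk RNA, a change in the number of cells that express a gene and in the RNA each makes cannot be told apart.

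The first comparison asked where the clock genes stood in the resistant and the parental line before any treatment. At T0, 8 of the 10 members differed between BT474R and BT474, 3 higher and 5 lower in BT474R, in a comparison that called 46.9% of all genes tested. BHLHE40, the E-box repressor DEC1, stood 2.66 higher on the log2 scale in BT474R, and its relative BHLHE41 (DEC2) was lower there, with a log2 difference of -1.34. PER1, PER2, CRY2 and NR1D2 were also lower in BT474R, and CRY1 and DBP were higher. The median log2 difference was -0.24 over the members and 0.00 over all genes tested.

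BHLHE40 was at 5.80 and 7.18 CPM in the BT474 libraries at T0 and at 39.7 and 39.98 CPM in those of BT474R, a log2 difference of 2.66 ± 0.22 (SE, edgeR adjusted p = 8.1e-13). BHLHE41 was at 3.67 and 3.24 CPM in BT474 and 1.45 and 1.26 CPM in BT474R, a log2 difference of -1.34 ± 0.23 (SE, edgeR adjusted p = 5.2e-06). For both DEC genes the lines were far apart and did not overlap, and in opposite directions. PER2 was at 37.1 and 36.8 CPM in BT474 and 22.6 and 20.1 CPM in BT474R (-0.77 ± 0.09 SE, edgeR adjusted p = 1.48e-09), and CRY2 at 19.1 and 21.5 CPM and 13.2 and 11.7 CPM (-0.67 ± 0.10 SE, edgeR adjusted p = 2.82e-07). CRY1, the other cryptochrome, went the opposite way, from 27.5 and 26.6 CPM in BT474 to 37.7 and 40.7 CPM in BT474R (0.56 ± 0.07 SE, edgeR adjusted p = 1.17e-08). DBP was at 4.25 and 4.52 CPM in BT474 and 6.45 and 7.13 CPM in BT474R, a log2 difference of 0.67 ± 0.17 (SE, edgeR adjusted p = 0.00137). None of these 4 genes had libraries of one line within the range of the other.

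PER1 was at 8.93 and 8.21 CPM in BT474 and 5.17 and 5.92 CPM in BT474R, a log2 difference of -0.60 ± 0.19 (SE, edgeR adjusted p = 0.00762), and NR1D2 at 60.1 and 56.7 CPM and 42.9 and 50.3 CPM, a log2 difference of -0.29 ± 0.08 (SE, edgeR adjusted p = 0.00331). Each call was lost when 1 library was left out: PER1 without BT474 T0 replicate 1 (-0.56) and NR1D2 without BT474R T0 replicate 1 (-0.24). PER3 was not called (-0.19, edgeR adjusted p = 0.0736), with its BT474R libraries at 20.1 and 24.4 CPM and those of BT474 at 26.3 and 25.6 CPM. NR1D1 was not called either (0.53, edgeR adjusted p = 0.0653), although both BT474R libraries, at 2.56 and 3.26 CPM, lay above both BT474 libraries, at 2.09 and 2.06 CPM. COL1A1 and GATA3 differ between the lines too, and their part in these differences was not tested.

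**Figure D1:**
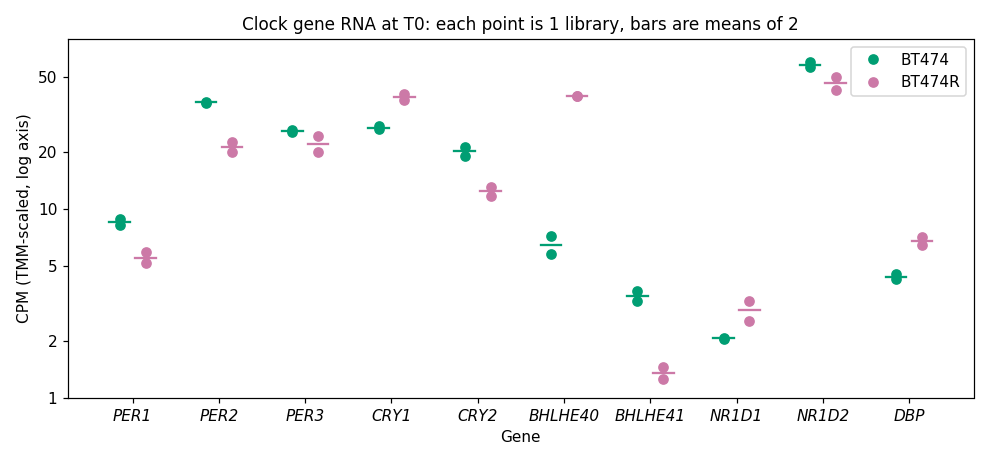
Level of each clock gene at T0 in CPM on a log axis, with each point 1 library and each bar the mean of 2, for BT474 and BT474R. BHLHE40 stands at 39.7 and 39.98 CPM in BT474R and at 5.80 and 7.18 CPM in BT474, and BHLHE41 shows the opposite order.

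Per kilobase of merged exons, the only scale on which members are compared with each other here, NR1D2 had the highest level at T0 in BT474, at 10.1 ± 0.408 CPM per kb (SD, n = 2). It was followed by CRY1 at 5.66 ± 0.137, PER2 at 5.21 ± 0.0339, CRY2 at 3.27 ± 0.272 and PER3 at 3.19 ± 0.0663 CPM per kb, and CRY2 and PER3 could not be ordered, since their libraries overlapped. BHLHE40 at 1.84 ± 0.277, PER1 at 1.22 ± 0.0727, BHLHE41 at 0.897 ± 0.0785, NR1D1 at 0.789 ± 0.00613 and DBP at 0.676 ± 0.0295 CPM per kb were the lowest. Merged exons join all annotated transcripts, so a gene that mainly makes a shorter one is placed too low. Those of DBP have 6485 bases and cover most of the gene (chr19:48630030-48637379), so its place in either line is uncertain. In BT474R, BHLHE40 led at 11.3 ± 0.0464 CPM per kb. CRY1 at 8.20 ± 0.438 and NR1D2 at 8.05 ± 0.895 CPM per kb followed with overlapping libraries, as did PER2 at 3.01 ± 0.252 and PER3 at 2.74 ± 0.375 CPM per kb. CRY2 came next at 2.01 ± 0.165 CPM per kb, then NR1D1 at 1.11 ± 0.189 and DBP at 1.05 ± 0.074 CPM per kb with overlapping libraries. PER1 at 0.792 ± 0.0753 and BHLHE41 at 0.352 ± 0.0357 CPM per kb were the lowest in BT474R.

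Vehicle-treated cells show what the clock genes did over the day without a ligand, after the change to fresh medium. In BT474, PER1, PER2 and BHLHE40 rose and DBP fell by 1 h, and at 24 h only BHLHE40, up, and DBP, down, were called. In BT474R, PER2 was called up at 1 h and 12 h and PER3 at 12 h. At 24 h, PER1, PER3, BHLHE40, NR1D1, NR1D2 and DBP were above T0 in that line and CRY1 was below. No member's change at 1 h differed between the lines when that difference was tested. Against T0, vehicle changed 4 members in BT474 at 1 h, 3 of them up, and 2 each at 12 h and 24 h, 1 of them up each time, where 6.61%, 6.41% and 11.4% of all genes tested were called. In BT474R it changed 1 member at 1 h and 2 at 12 h, all up, and 7 at 24 h (6 up, 1 down), where 2.24%, 1.13% and 13.7% were called. The median log2 change of the members in BT474R at 24 h was 0.48, and over all genes tested it was 0.02. In BT474 at 24 h it was -0.01, and -0.01 over all genes tested.

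**Figure D2:**
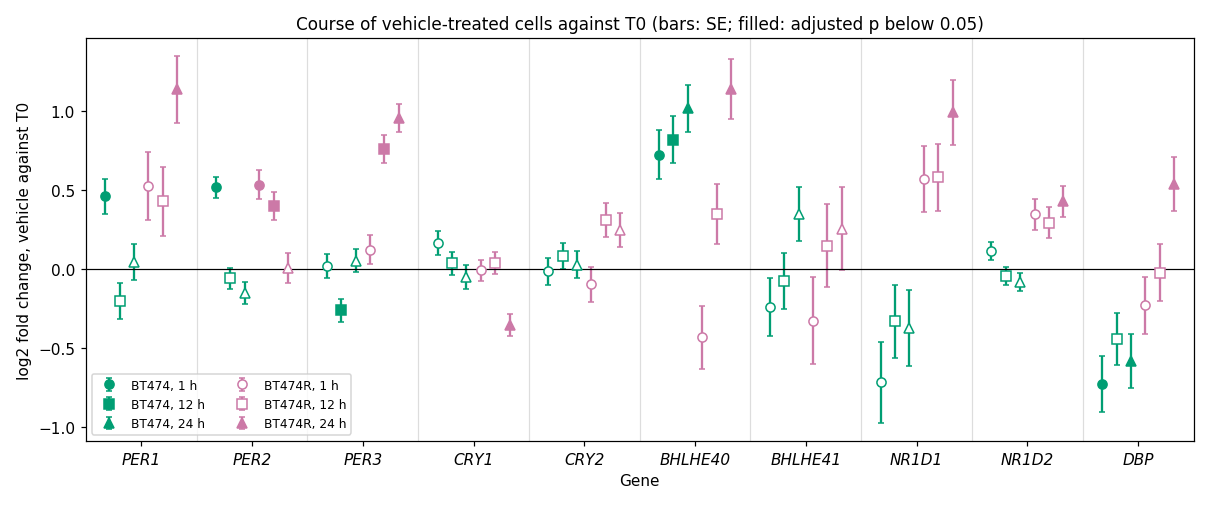
Log2 fold change of each clock gene in vehicle-treated cells against T0 of the same line, with SE bars, at 1 h (circles), 12 h (squares) and 24 h (triangles). Filled symbols have an edgeR adjusted p below 0.05, and at 24 h the filled BT474R triangles of PER1, PER3, NR1D1, NR1D2 and DBP stand above those of BT474.

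PER2 rose in both lines within 1 h of the change to fresh medium. It went from 37.1 and 36.8 CPM at T0 to 54.7 and 50.8 CPM in BT474, a log2 change of 0.52 ± 0.07 (SE, edgeR adjusted p = 6.9e-07). In BT474R it went from 22.6 and 20.1 CPM to 31.1 and 31.7 CPM, a log2 change of 0.53 ± 0.09 (SE, edgeR adjusted p = 0.0013). Neither line had overlapping libraries, and in BT474 PER2 was back at 36.8 and 34.2 CPM by 12 h. In BT474R it still stood at 29.1 and 28.0 CPM at 12 h (0.40 ± 0.09 SE, edgeR adjusted p = 0.0293), and at 22.8 and 19.5 CPM, overlapping with T0, at 24 h. The BT474R calls for PER2 were not stable. That at 1 h was lost without T0 replicate 2 (0.43), and that at 12 h without T0 replicate 2 (0.30) or either vehicle library (0.38 and 0.43). Both were also lost with a replicate block within each time point. T0 is the only group of its time point, so that block takes up T0 replicate 2 and leaves the T0 level to replicate 1. Losses with that block in tests with T0 therefore say nothing about pairing.

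PER1 rose at 1 h in BT474, from 8.93 and 8.21 CPM to 12.5 and 11.2 CPM (0.46 ± 0.11 SE, edgeR adjusted p = 0.00553). That call was lost without T0 replicate 2 (0.42) or vehicle replicate 1 (0.37) and in 1 fit of both lines (adjusted p = 0.117). It was lost too with a replicate block within each time point, which leaves T0 to replicate 1. In BT474R, PER1 was at 8.35 and 8.0 CPM at 1 h and 6.13 and 8.92 CPM at 12 h, neither called, and at 10.6 and 13.9 CPM at 24 h, a log2 change of 1.14 ± 0.21 (SE, edgeR adjusted p = 0.000886) from its T0 level of 5.17 and 5.92 CPM. Both libraries at 24 h lay above every earlier vehicle or T0 library of that line. PER3 also climbed in BT474R, from 20.1 and 24.4 CPM at T0 to 39.2 and 37.7 CPM at 12 h (0.76 ± 0.09 SE, edgeR adjusted p = 8.78e-06) and 41.4 and 45.0 CPM at 24 h (0.96 ± 0.09 SE, edgeR adjusted p = 5.79e-07). In BT474, PER3 was at 22.5 and 20.8 CPM at 12 h against 26.3 and 25.6 CPM at T0 (-0.26 ± 0.07 SE, edgeR adjusted p = 0.0235). That small fall was no longer called without T0 replicate 1 (-0.24), T0 replicate 2 (-0.27) or vehicle replicate 2 (-0.21). DESeq2 (adjusted p = 0.106) and 1 fit of both lines (adjusted p = 0.071) did not call it either. The same held with a replicate block within each time point, where T0 rests on replicate 1.

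BHLHE40 rose at each time in BT474 and at 24 h in BT474R. In BT474 it was at 5.80 and 7.18 CPM at T0, 10.8 and 10.4 CPM at 1 h, 11.5 and 11.2 CPM at 12 h and 13.3 and 12.9 CPM at 24 h, a log2 change of 1.02 ± 0.15 (SE, edgeR adjusted p = 2.99e-06) by then. The change at 12 h was 0.82 ± 0.15 (SE, edgeR adjusted p = 0.000195), and that at 1 h, 0.72 ± 0.15 (SE, edgeR adjusted p = 0.00177), was lost without T0 replicate 1 (0.55). In 1 fit of both lines neither the 1 h nor the 12 h change was called (adjusted p = 0.133 and 0.0568). In BT474R its T0 libraries were at 39.7 and 39.98 CPM, those at 1 h lower, at 29.9 and 30.2 CPM (not called, -0.43), those at 12 h at 40.4 and 62.1 CPM (not called, 0.35), and those at 24 h at 68.1 and 107 CPM (1.14 ± 0.19 SE, edgeR adjusted p = 0.000309). Those 2 libraries at 24 h stood far apart, and without either one the log2 change was 1.42 or 0.79, called in both cases. BHLHE41 was not called at any time in either line, between -0.33 and 0.35 on the log2 scale, at 25 to 129 counts per library.

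DBP fell in BT474 from 4.25 and 4.52 CPM at T0 to 2.99 and 2.29 CPM at 1 h (-0.73 ± 0.18 SE, edgeR adjusted p = 0.00634), and stood at 2.67 and 3.19 CPM at 24 h (-0.58 ± 0.17 SE, edgeR adjusted p = 0.0197). All 6 vehicle libraries of BT474 lay below both T0 libraries. The call at 1 h was lost without T0 replicate 2 (-0.68) or vehicle replicate 2 (-0.54). That at 24 h was lost without T0 replicate 1 (-0.62), T0 replicate 2 (-0.53) or vehicle replicate 1 (-0.46). Both were lost with DESeq2 (adjusted p = 0.097 and 0.183) and with a replicate block within each time point, where T0 rests on replicate 1. In BT474R, DBP was at 6.45 and 7.13 CPM at T0 and 7.70 and 12.2 CPM at 24 h (0.54 ± 0.17 SE, edgeR adjusted p = 0.0424). Its 2 libraries at 24 h differed strongly, and without vehicle replicate 2 the change was 0.19 and not called. The call was lost too without T0 replicate 1 (0.49) or T0 replicate 2 (0.60), with DESeq2 (adjusted p = 0.0824) and with that block.

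The REV-ERB genes rose with vehicle in BT474R at 24 h. NR1D1 went from 2.56 and 3.26 CPM at T0 to 4.52 and 7.25 CPM (0.99 ± 0.21 SE, edgeR adjusted p = 0.00242), and NR1D2 from 42.9 and 50.3 CPM to 61.3 and 63.7 CPM (0.43 ± 0.10 SE, edgeR adjusted p = 0.00496). For both genes the 24 h libraries lay above the T0 libraries. Without vehicle replicate 2 the NR1D1 change was 0.64 and not called (adjusted p = 0.0553), and without T0 replicate 1 that of NR1D2 was 0.34 and not called (adjusted p = 0.099). In BT474 neither was called, NR1D1 between -0.72 and -0.33 and NR1D2 between -0.08 and 0.12 on the log2 scale. CRY1 fell in BT474R at 24 h, from 37.7 and 40.7 CPM to 29.9 and 31.1 CPM (-0.36 ± 0.07 SE, edgeR adjusted p = 0.00146). This fall was not called with a replicate block within each time point, where T0 rests on replicate 1. CRY2 was not called against T0 in either line, between -0.10 and 0.31.

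Whether the vehicle course differed between the lines was tested as an interaction in a fit of all 40 libraries. No member differed at 1 h, 2 did at 12 h and 5 at 24 h, all higher in BT474R, where 0.487%, 1.34% and 6.46% of all genes tested were called. At 1 h an unadjusted p under 0.05 was found for 2376 of the 24641 genes tested, and DESeq2 called no more members (7 over the 3 time points, as with edgeR). PER3 differed by 1.01 ± 0.12 (SE, edgeR adjusted p = 5.27e-07) at 12 h and 0.90 ± 0.12 (SE, edgeR adjusted p = 2.21e-06) at 24 h. At 24 h, NR1D1 differed by 1.35 ± 0.32 (SE, edgeR adjusted p = 0.00667), DBP by 1.11 ± 0.24 (SE, edgeR adjusted p = 0.00326) and PER1 by 1.08 ± 0.24 (SE, edgeR adjusted p = 0.00397). PER1, PER3, NR1D1 and DBP were each called up against T0 in BT474R at 24 h and not in BT474. A replicate block within each time point leaves T0 of each line to replicate 1. With it the differences of NR1D1 and DBP at 24 h and that of PER2 at 12 h were no longer called. NR1D2 differed by 0.50 ± 0.12 (SE, edgeR adjusted p = 0.00482) at 24 h and PER2 by 0.45 ± 0.12 (SE, edgeR adjusted p = 0.045) at 12 h. The NR1D2 call was lost without BT474R T0 replicate 1 (0.40), and that of PER2 without any 1 of BT474 T0 replicate 1 (0.47), T0 replicate 2 (0.47) and vehicle replicate 2 (0.41) and of BT474R T0 replicate 2 (0.38), vehicle replicate 1 (0.47) and vehicle replicate 2 (0.50).

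The ligands were compared with the vehicle of the same line and time point. Over the 4 combinations of ligand and line and the 3 time points, 42 of 120 tests of members were called, 18 up and 24 down, 28 of them in BT474 and 14 in BT474R. The fitted spread between libraries (common dispersion) was 0.00121 in BT474 and 0.00300 in BT474R. A change of the same size thus passes less easily in BT474R, and these counts do not compare the sizes of the responses. Of all genes tested at 24 h, 24.1% were called in HRG-BT474 and 2.78% in HRG-BT474R. With EGF these shares were 16.4% in BT474 and 17.3% in BT474R. Tested as an interaction, the ligand effect differed between the lines for 0 members with EGF and 1 with HRG. At 1 h the change was in the PER genes, with PER1 and PER2 up in BT474. From 12 h on, the called changes were up for BHLHE40 and, at 24 h, for CRY1 and, in BT474, PER2, and down for NR1D2, DBP, CRY2 and, at 12 h, PER3. PER1, up at 1 h in BT474, was below vehicle there at 12 h, and NR1D1 was called once, up. All 12 tests of BHLHE41 were uncalled. EGF-BT474 and HRG-BT474 share their vehicle libraries, as do EGF-BT474R and HRG-BT474R, so the values of the ligands within a line are given side by side. Some markers moved with ligand as well: at 12 h, TP63 of basal cells had log2 changes of 1.18 in EGF-BT474, 1.15 in HRG-BT474, 1.22 in EGF-BT474R and 1.07 in HRG-BT474R, and the luminal GATA3 of -0.34, -0.45, -1.78 and -1.03, all called. The 8 luminal markers went both ways at 12 h. In the same order, 4 were called up and 2 down, 4 up and 4 down, 3 up and 2 down, and 1 up and 2 down. Of all genes tested, 16.0%, 25.8%, 12.0% and 4.12% were called there. KRT5, another basal marker, was called up in HRG-BT474 (2.28) and EGF-BT474R (1.46) at 12 h, with levels of 2.58 CPM at most, and KRT14, the third, stayed at or below 0.283 CPM. The endothelial VWF was called up in EGF-BT474R at 12 h (0.42) and PECAM1 at 24 h. The part of these markers in the results was not tested.

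In EGF-BT474, both members called at 1 h were up, 1 of the 6 called at 12 h was up, and so were 3 of the 5 called at 24 h, where 2.19%, 16.0% and 16.4% of all genes tested were called. HRG-BT474 had 2 calls at 1 h, both up, 6 at 12 h, of which 5 were down, and 7 at 24 h, of which 4 were down, with 2.77%, 25.8% and 24.1% of all genes called. The count in EGF-BT474R was 1 at 1 h, an increase, 6 at 12 h, of which 4 were down, and 4 at 24 h, of which 2 were down, with 0.457%, 12.0% and 17.3% of all genes called. HRG-BT474R had none at 1 h, 3 at 12 h, of which 2 were down, and none at 24 h, where 0.169%, 4.12% and 2.78% of all genes were called. At the times with no member called in HRG-BT474R, 1058 genes at 1 h and 3495 at 24 h had an unadjusted p under 0.05, and DESeq2 called 2 members over the 3 time points. At 12 h, the median log2 change of the members was -0.11 in EGF-BT474, -0.32 in HRG-BT474, -0.28 in EGF-BT474R and -0.18 in HRG-BT474R, and over all genes tested it was -0.03, -0.02, -0.01 and -0.02.

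**Figure D3:**
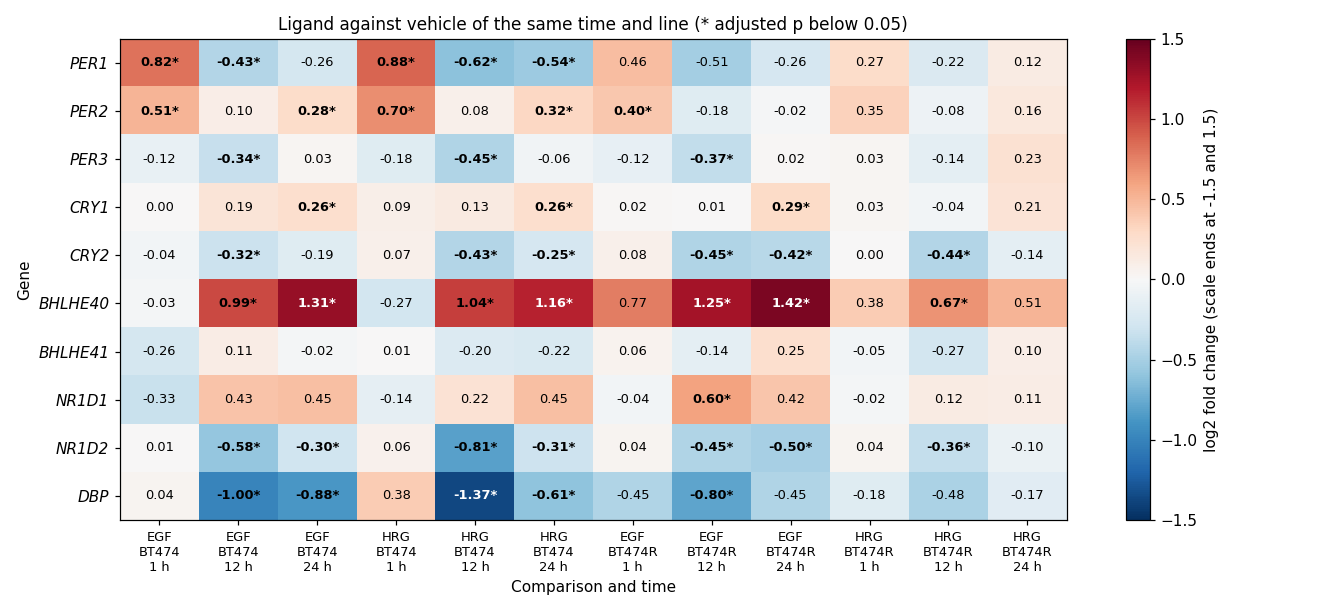
Log2 fold change of each clock gene with EGF or HRG against vehicle of the same line and time, in rows by gene and columns by ligand, line and time. Red is higher and blue lower with ligand, an asterisk marks an edgeR adjusted p below 0.05, and BHLHE40 is the row with called rises from 12 h on in 7 columns.

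PER1 and PER2, the members of the PER family known as immediate early genes, rose within 1 h of ligand in BT474. PER1 was at 12.5 and 11.2 CPM with vehicle, 19.3 and 22.8 CPM with EGF and 22.5 and 21.2 CPM with HRG in BT474 at 1 h. Both ligands put every library above both vehicle libraries, and EGF and HRG overlapped. The log2 change was 0.82 ± 0.09 (SE, edgeR adjusted p = 5.61e-08) with EGF and 0.88 ± 0.10 (SE, edgeR adjusted p = 1.34e-08) with HRG. PER2 was at 54.7 and 50.8 CPM with vehicle, 71.3 and 80.8 CPM with EGF and 85.6 and 87.3 CPM with HRG, log2 changes of 0.51 ± 0.06 (SE, edgeR adjusted p = 1.28e-07) and 0.70 ± 0.06 (SE, edgeR adjusted p = 5.45e-11). Its HRG libraries were the highest, above both EGF libraries. The EGF call for PER2 was lost when only the 4 libraries compared were fitted (adjusted p = 0.0532), with the same log2 change of 0.51. PER3, at 25.8 and 26.6 CPM with vehicle, did not pass the test at 1 h with EGF (-0.12) or HRG (-0.18).

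In BT474R at 1 h, PER2 was at 31.1 and 31.7 CPM with vehicle, 42.5 and 40.6 CPM with EGF and 41.7 and 37.5 CPM with HRG. All ligand libraries lay above vehicle, but only the EGF change was called, 0.40 ± 0.08 (SE, edgeR adjusted p = 0.0236), and that call was lost without any 1 of the 4 libraries (0.39 and 0.42 without vehicle replicate 1 or 2, 0.37 and 0.44 without EGF replicate 1 or 2). The HRG change was 0.35 ± 0.08 (SE, edgeR adjusted p = 0.158). PER1 was at 8.35 and 8.0 CPM with vehicle, 10.4 and 12.2 CPM with EGF and 10.02 and 9.48 CPM with HRG, and neither the EGF change of 0.46 ± 0.19 (SE, edgeR adjusted p = 0.73) nor the HRG change of 0.27 ± 0.19 (SE, edgeR adjusted p = 1) was called. Tested as an interaction, the effect of HRG at 1 h on PER1 differed between the lines by -0.62 ± 0.21 (SE, edgeR adjusted p = 0.43), which did not pass.

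After the early rise, PER1 fell below vehicle in BT474. At 12 h it was at 7.33 and 7.64 CPM with vehicle, 5.56 and 5.58 CPM with EGF and 5.10 and 4.74 CPM with HRG, log2 changes of -0.43 ± 0.13 (SE, edgeR adjusted p = 0.0134) and -0.62 ± 0.12 (SE, edgeR adjusted p = 0.000161). At 24 h it was at 8.57 and 9.26 CPM with vehicle and 6.52 and 5.85 CPM with HRG (-0.54 ± 0.12 SE, edgeR adjusted p = 0.000467), and at 7.65 and 7.24 CPM with EGF, not called (-0.26). The libraries of ligand and vehicle did not overlap at either time. The EGF call at 12 h was lost without vehicle replicate 2 (-0.40), EGF replicate 1 (-0.42) or EGF replicate 2 (-0.43), with DESeq2 (adjusted p = 0.0629) and in 1 fit of both lines. In BT474R the PER1 libraries at 12 h were spread, at 6.13 and 8.92 CPM with vehicle and 4.63 and 8.52 CPM with HRG. Neither EGF (-0.51 at 12 h) nor HRG (-0.22 at 12 h) changed it by a called amount.

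PER2 was again a little above vehicle in BT474 at 24 h, at 31.7 and 35.2 CPM with vehicle, 39.9 and 41.7 CPM with EGF (0.28 ± 0.07 SE, edgeR adjusted p = 0.00341) and 42.1 and 42.5 CPM with HRG (0.32 ± 0.07 SE, edgeR adjusted p = 0.000437). Both ligand pairs lay above the vehicle pair, but the EGF call was lost without vehicle replicate 1 (0.20). PER3 fell at 12 h with both ligands in BT474 and with EGF in BT474R, and was not called at 24 h. In BT474 at 12 h it was at 22.5 and 20.8 CPM with vehicle, 16.8 and 17.7 CPM with EGF (-0.34 ± 0.08 SE, edgeR adjusted p = 0.00173) and 15.9 and 16.1 CPM with HRG (-0.45 ± 0.08 SE, edgeR adjusted p = 1.77e-05). At 24 h its change was 0.03 with EGF and -0.06 with HRG. In BT474R at 12 h it was at 39.2 and 37.7 CPM with vehicle and 31.0 and 28.6 CPM with EGF (-0.37 ± 0.08 SE, edgeR adjusted p = 0.00465), with no overlap, and the HRG change was -0.14 and not called. The EGF calls for PER3 at 12 h were lost in BT474 without vehicle replicate 1 (-0.28) or EGF replicate 1 (-0.30), and in BT474R without vehicle replicate 1 (-0.33) or EGF replicate 2 (-0.31).

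**Figure D4:**
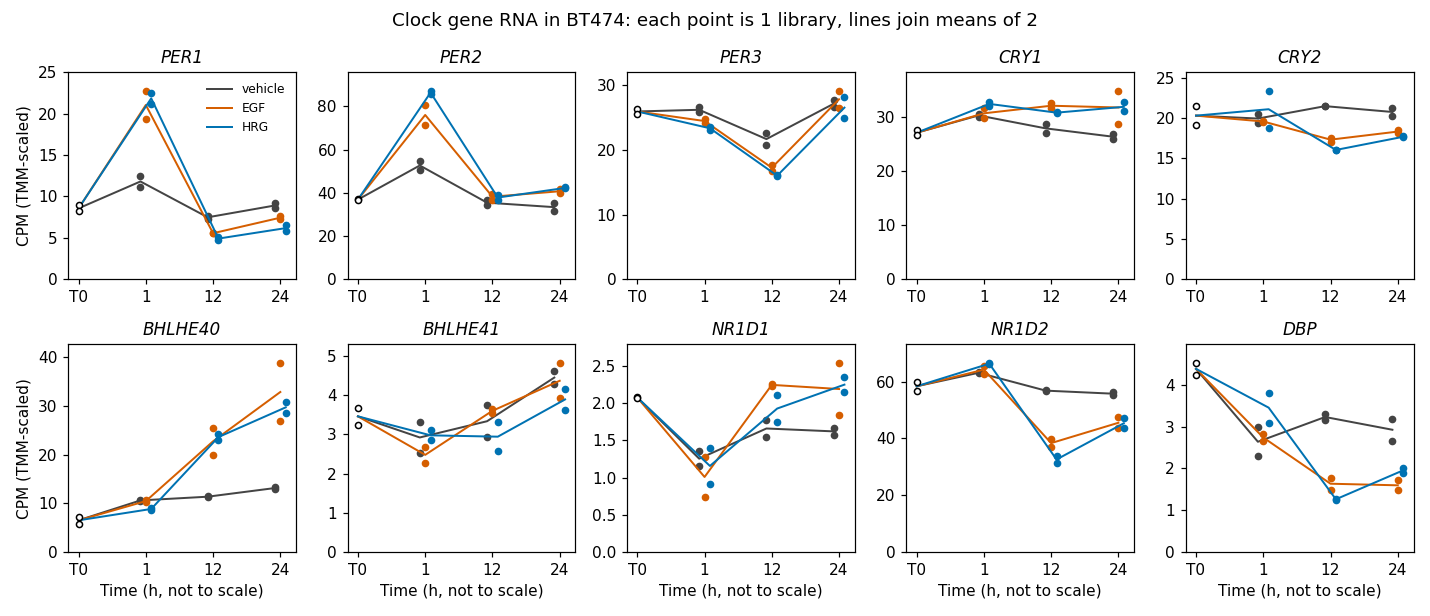
CPM of each clock gene in BT474 at T0 and after 1 h, 12 h and 24 h of vehicle, EGF or HRG, with each point 1 library and lines through the means of 2, and each panel has its own axis from 0. PER1 and PER2 peak at 1 h with ligand, to 22.8 and 87.3 CPM at most, and NR1D2 is lowest at 12 h with both ligands.

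The called changes of the cryptochromes, partners of the PER proteins in repression, were up for CRY1 and down for CRY2. Whether these 2 genes changed differently was not tested. CRY1 rose at 24 h in EGF-BT474, from 25.9 and 26.7 CPM with vehicle to 28.6 and 34.8 CPM (0.26 ± 0.07 SE, edgeR adjusted p = 0.0117), in HRG-BT474, to 32.6 and 31.0 CPM (0.26 ± 0.07 SE, edgeR adjusted p = 0.00738), and in EGF-BT474R, from 29.9 and 31.1 CPM to 39.3 and 35.5 CPM (0.29 ± 0.07 SE, edgeR adjusted p = 0.00481). In each case both ligand libraries lay above both vehicle libraries. The rise in EGF-BT474 was lost without vehicle replicate 1 (0.23), vehicle replicate 2 (0.27) or EGF replicate 2, where it was 0.12. That in HRG-BT474 was lost without HRG replicate 1 (0.22), and that in EGF-BT474R without vehicle replicate 1 (0.27) or EGF replicate 1 (0.22).

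CRY2 fell in all 4 combinations at 12 h. In BT474 it was at 21.5 and 21.4 CPM with vehicle, 17.1 and 17.6 CPM with EGF (-0.32 ± 0.08 SE, edgeR adjusted p = 0.0063) and 16.1 and 16.0 CPM with HRG (-0.43 ± 0.08 SE, edgeR adjusted p = 8.67e-05). In BT474R it was at 16.2 and 15.2 CPM with vehicle, 11.6 and 11.6 CPM with EGF (-0.45 ± 0.11 SE, edgeR adjusted p = 0.00625) and 12.0 and 11.3 CPM with HRG (-0.44 ± 0.10 SE, edgeR adjusted p = 0.015). No ligand library reached the vehicle range. At 24 h the fall was called in HRG-BT474 (-0.25 ± 0.08 SE, edgeR adjusted p = 0.0232) and EGF-BT474R (-0.42 ± 0.11 SE, edgeR adjusted p = 0.00801), and not in EGF-BT474 (-0.19) or HRG-BT474R (-0.14).

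Of these calls for CRY2, that of HRG-BT474 at 12 h was kept in each fit tried. The EGF-BT474 call at 12 h was lost without EGF replicate 1 (-0.29). In EGF-BT474R the 12 h call was lost without vehicle replicate 1 (-0.39), EGF replicate 1 (-0.45) or EGF replicate 2 (-0.44), and the 24 h call without EGF replicate 2 (-0.32). The HRG-BT474R call was lost without vehicle replicate 1 (-0.37), vehicle replicate 2 (-0.46), HRG replicate 1 (-0.48) or HRG replicate 2 (-0.37), and with the libraries compared alone. In HRG-BT474 the 24 h call was lost without vehicle replicate 2 (-0.21), HRG replicate 1 (-0.25) or HRG replicate 2 (-0.26), and with DESeq2 (adjusted p = 0.103). It was also lost with the libraries compared alone and in 1 fit of both lines.

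BHLHE40, which represses E-box genes and is also known as a target of growth and low-oxygen signals, rose in 7 of the 8 ligand comparisons from 12 h on and had the largest log2 change of the members in each comparison at those times except in BT474 at 12 h, where the fall of DBP was larger with both ligands (-0.995 with EGF and -1.37 with HRG). In BT474 at 12 h it was at 11.5 and 11.2 CPM with vehicle, 20 and 25.4 CPM with EGF (0.99 ± 0.12 SE, edgeR adjusted p = 6.73e-08) and 24.2 and 23.0 CPM with HRG (1.04 ± 0.12 SE, edgeR adjusted p = 4.83e-09). At 24 h it was at 13.3 and 12.9 CPM with vehicle, 26.9 and 38.8 CPM with EGF (1.31 ± 0.11 SE, edgeR adjusted p = 2.25e-11) and 28.5 and 30.9 CPM with HRG (1.16 ± 0.11 SE, edgeR adjusted p = 2.41e-10). Every ligand library was above every vehicle library, and the EGF pair at 24 h was the widest. These 4 calls were kept without any 1 library and in each other fit tried.

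In BT474R, BHLHE40 stood at a higher level and also rose with EGF. At 12 h it was at 40.4 and 62.1 CPM with vehicle, 132 and 114 CPM with EGF (1.25 ± 0.18 SE, edgeR adjusted p = 3.71e-05) and 70.7 and 94.8 CPM with HRG (0.67 ± 0.18 SE, edgeR adjusted p = 0.0345). At 24 h it was at 68.1 and 107 CPM with vehicle, 226 and 242 CPM with EGF (1.42 ± 0.17 SE, edgeR adjusted p = 3.1e-06) and 105 and 143 CPM with HRG, where the change of 0.51 ± 0.17 (SE, edgeR adjusted p = 0.138) was not called. The EGF libraries stood clear of vehicle and of HRG at both times, while HRG and vehicle libraries overlapped at 24 h. Both EGF calls were kept without any 1 library, but the HRG call at 12 h was lost without vehicle replicate 1 (0.42) or HRG replicate 2 (0.47) and was 1.06 without vehicle replicate 2, and neither DESeq2 (adjusted p = 0.0925) nor a fit of the libraries compared alone (adjusted p = 0.203) called it. At 1 h BHLHE40 was at 29.9 and 30.2 CPM with vehicle and 51.9 and 50.5 CPM with EGF in BT474R, which did not pass (0.77 ± 0.19 SE, edgeR adjusted p = 0.105). BHLHE41, its relative, ranged from -0.27 to 0.25 over the 12 ligand comparisons with none called. At 25 to 129 counts per library, its SE was between 0.16 and 0.27. Changes well above the SE can also go uncalled, as that of BHLHE40 at 1 h did, so changes of BHLHE41 may have been missed.

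**Figure D5:**
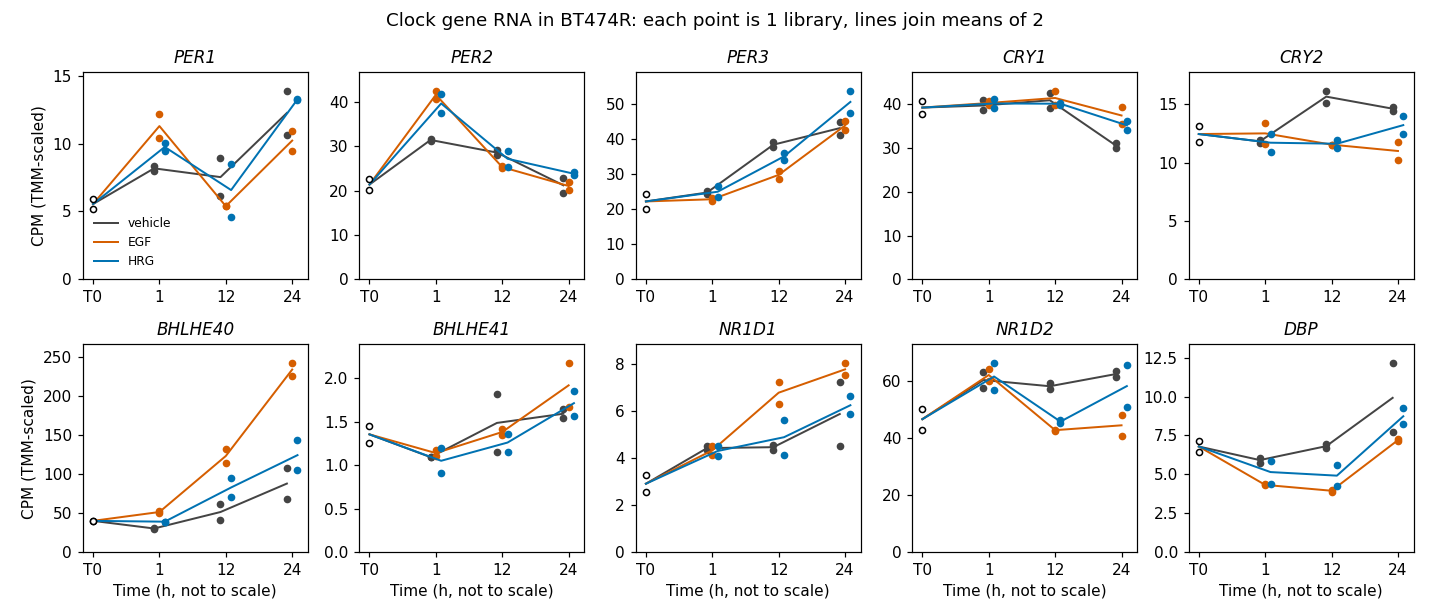
CPM of each clock gene in BT474R at T0 and after 1 h, 12 h and 24 h of vehicle, EGF or HRG, with each point 1 library and lines through the means of 2, and each panel has its own axis from 0. BHLHE40 reaches 226 and 242 CPM with EGF at 24 h, and the vehicle libraries at 24 h stand apart from each other in BHLHE40, NR1D1 and DBP.

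NR1D2, the REV-ERB beta repressor of BMAL1, fell with both ligands. In BT474 at 12 h it was at 56.9 and 56.8 CPM with vehicle, 36.9 and 39.8 CPM with EGF (-0.58 ± 0.06 SE, edgeR adjusted p = 1.28e-09) and 31.3 and 33.9 CPM with HRG (-0.81 ± 0.06 SE, edgeR adjusted p = 7.29e-14). At 24 h it was at 56.2 and 55.3 CPM with vehicle, 43.6 and 47.4 CPM with EGF (-0.30 ± 0.06 SE, edgeR adjusted p = 0.000185) and 47.1 and 43.6 CPM with HRG (-0.31 ± 0.06 SE, edgeR adjusted p = 4.47e-05). No ligand library reached the vehicle range, and the log2 change was less at 24 h than at 12 h with both ligands, a difference that was not tested. In BT474R at 12 h it was at 59.2 and 57.1 CPM with vehicle, 42.9 and 42.6 CPM with EGF (-0.45 ± 0.10 SE, edgeR adjusted p = 0.00291) and 46.2 and 45.3 CPM with HRG (-0.36 ± 0.10 SE, edgeR adjusted p = 0.0362). At 24 h the fall was called with EGF, from 61.3 and 63.7 CPM to 48.2 and 40.7 CPM (-0.50 ± 0.10 SE, edgeR adjusted p = 0.000806), and not with HRG (-0.10). The 6 calls in BT474 and with EGF in BT474R were kept without any 1 library, and the HRG-BT474R call was lost without any 1 of vehicle replicate 1 (-0.31), vehicle replicate 2 (-0.35), HRG replicate 1 (-0.37) and HRG replicate 2 (-0.32).

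NR1D1, the alpha form, was called once, at 12 h of EGF in BT474R, where it was at 4.58 and 4.36 CPM with vehicle and 7.27 and 6.32 CPM with EGF (0.60 ± 0.18 SE, edgeR adjusted p = 0.0316). The EGF libraries lay above vehicle, but the call was lost without any 1 of vehicle replicate 1 (0.65), vehicle replicate 2 (0.59), EGF replicate 1 (0.49) and EGF replicate 2 (0.70), and with DESeq2 (adjusted p = 0.0606). In BT474 at 12 h and 24 h EGF left it at log2 changes of 0.43 and 0.45, and HRG at 0.22 and 0.45, none called, at 20 to 68 counts per library of that line. Whether NR1D1 and NR1D2 changed differently was not tested.

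DBP, the D-box activator, had the largest fall of the members. In BT474 at 12 h it was at 3.17 and 3.30 CPM with vehicle, 1.49 and 1.78 CPM with EGF (-0.995 ± 0.20 SE, edgeR adjusted p = 0.000359) and 1.28 and 1.25 CPM with HRG (-1.37 ± 0.20 SE, edgeR adjusted p = 1.45e-06). At 24 h it was at 2.67 and 3.19 CPM with vehicle, 1.72 and 1.47 CPM with EGF (-0.88 ± 0.21 SE, edgeR adjusted p = 0.00177) and 2.01 and 1.90 CPM with HRG (-0.61 ± 0.19 SE, edgeR adjusted p = 0.0171). Ligand and vehicle libraries did not overlap in either case, and the values rest on 30 to 92 counts per library. In BT474R the fall was called at 12 h with EGF, from 6.93 and 6.69 CPM to 4.01 and 3.87 CPM (-0.80 ± 0.19 SE, edgeR adjusted p = 0.00657), but not with HRG, at 4.25 and 5.57 CPM (-0.48 ± 0.18 SE, edgeR adjusted p = 0.158), nor at 24 h with EGF (-0.45 ± 0.17 SE, edgeR adjusted p = 0.0669) or HRG (-0.17).

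The DBP calls in BT474 at 12 h were kept without any 1 library. At 24 h, that of EGF was lost without vehicle replicate 2 (-0.74). That of HRG was lost without vehicle replicate 2 (-0.46), HRG replicate 1 (-0.66) or HRG replicate 2 (-0.57), with DESeq2 (adjusted p = 0.124) and with the libraries compared alone. The EGF-BT474R call for DBP was lost without EGF replicate 1 (-0.83) or EGF replicate 2 (-0.77).

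HRG was compared with EGF directly in each line. In BT474, 1 member differed: NR1D2 was lower with HRG than with EGF at 12 h, a log2 difference of -0.24 ± 0.06 (SE, edgeR adjusted p = 0.0341). No member differed at 1 h or 24 h, where 0.139% and 0.768% of all genes tested were called, or 1167 and 2690 genes at an unadjusted p under 0.05, and 2.17% were called at 12 h. The NR1D2 call was lost without HRG replicate 1 (-0.18), HRG replicate 2 (-0.30), EGF replicate 1 (-0.29) or EGF replicate 2 (-0.19), and DESeq2 called no member at any time, nor did 1 fit of both lines.

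In BT474R, HRG and EGF differed for 2 members at 24 h, BHLHE40 by -0.91 ± 0.17 (SE, edgeR adjusted p = 0.00148) and NR1D2 by 0.40 ± 0.10 (SE, edgeR adjusted p = 0.0158), where 5.18% of all genes tested were called. BHLHE40 was lower with HRG, at 105 and 143 CPM against 226 and 242 CPM with EGF, and NR1D2 was higher, at 65.6 and 50.9 CPM against 48.2 and 40.7 CPM. For both genes the libraries of the ligands did not overlap. No member differed at 1 h or 12 h, where 0.0494% and 1.42% of all genes were called, or 686 and 2197 genes at an unadjusted p under 0.05, and DESeq2 called 2 members over the 3 time points. The NR1D2 difference was 0.19 without HRG replicate 1 and 0.29 without EGF replicate 2, and not called in either case. With the 4 libraries compared alone in the fit, neither difference passed (adjusted p = 0.288 for BHLHE40 and 0.589 for NR1D2).

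Tested between the lines, the effect of EGF differed for no member at any of the 3 times, where 0.138%, 1.96% and 4.01% of all genes tested were called and 1459, 2759 and 3457 had an unadjusted p under 0.05. DESeq2 called none of the members either. The largest of these differences was that of BHLHE40 at 1 h, 0.78 ± 0.29 (SE, edgeR adjusted p = 0.619), and at 24 h BHLHE40 differed by 0.11 ± 0.25 (SE, edgeR adjusted p = 0.92). The effect of HRG differed for NR1D2 at 12 h, where the fall was smaller in BT474R by 0.45 ± 0.12 (SE, edgeR adjusted p = 0.0195), and for no other member or time, where 0.544%, 4.07% and 3.33% of all genes were called. At 1 h and 24 h, 1615 and 3598 genes had an unadjusted p under 0.05 in that test, and DESeq2 called 1 member in all. The NR1D2 call was lost without any 1 of the 8 libraries it rests on, at log2 differences of 0.41 to 0.51. DBP, with log2 changes of -1.37 in HRG-BT474 and -0.48 in HRG-BT474R at 12 h, differed by 0.88 ± 0.28 (SE, edgeR adjusted p = 0.0699), and PER1 and BHLHE40 at 24 h by 0.63 ± 0.23 (SE, edgeR adjusted p = 0.141) and -0.68 ± 0.25 (SE, edgeR adjusted p = 0.146), none of which passed.

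The partners of the members were followed in a list of 22 other clock genes, of which 21 were tested in each fit and 1, the pseudogene FBXL21P, was not. NPAS2, which can take the place of CLOCK, moved most with ligand: its log2 change at 12 h was 1.43 in EGF-BT474, 1.86 in HRG-BT474, 1.60 in EGF-BT474R and 1.03 in HRG-BT474R, and at 24 h 1.27, 1.11, 1.37 and 0.58, all called. It was also 2.89 higher in BT474R at T0. CLOCK itself rose a little in EGF-BT474 at 24 h (0.14) and in HRG-BT474 at 12 h and 24 h (0.15 and 0.24), and BMAL1 (ARNTL) passed the test with neither ligand, between -0.22 and 0.13, but stood 1.03 higher in BT474R at T0. TEF, a D-box factor related to DBP, fell with HRG in BT474 (-0.37 at 12 h and -0.26 at 24 h) and with EGF in BT474R (-0.41 and -0.39).

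Of the 21 tested, 2 were called at 1 h in EGF-BT474 and in HRG-BT474, all up: WEE1, a mitotic kinase gene under clock control (0.76 and 0.98), and NAMPT, the enzyme of NAD salvage (0.37 and 0.44). In BT474R none was called at 1 h with either ligand. Of all genes tested at 1 h, 2.19%, 2.77%, 0.457% and 0.169% were called in EGF-BT474, HRG-BT474, EGF-BT474R and HRG-BT474R. At 12 h these shares were 16.0%, 25.8%, 12.0% and 4.12%, and at 24 h 16.4%, 24.1%, 17.3% and 2.78%. Of the 21, the counts at 12 h were 3 up and 1 down in EGF-BT474, 5 up and 2 down in HRG-BT474, 3 up and 2 down in EGF-BT474R and 1 up in HRG-BT474R. At 24 h they were 5 up and 2 down, 5 up and 2 down, 3 up and 1 down, and 1 up. NOCT, a clock-controlled output gene, was among those up in HRG-BT474 at 12 h (0.48) and in EGF-BT474 and HRG-BT474 at 24 h (0.60 and 0.61), NFIL3, a D-box repressor, in EGF-BT474 at 12 h (0.31), and ARNTL2 in EGF-BT474R (0.74 at 12 h and 0.58 at 24 h). RORA fell in EGF-BT474R at 12 h (-0.40).

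With vehicle against T0, the other clock genes counted 3 up at 1 h, 5 up at 12 h and 5 up and 2 down at 24 h in BT474, and 1 up, 1 up, and 1 up and 3 down in BT474R. In BT474 these included NOCT at 1 h (0.71), RORA at all 3 times (0.45, 0.49 and 0.31), ARNTL2 at 12 h and 24 h (0.65 and 0.95) and BMAL1 (ARNTL) at 12 h (0.49). In BT474R they included WEE1 at 1 h (0.30), TEF at 12 h and 24 h (0.77 and 1.07) and, downward at 24 h, NPAS2 (-0.45) and FBXW11 (-0.17). TEF rose in the same libraries of BT474R as PER3, and its course differed between the lines at 12 h and 24 h (0.85 and 0.93, both called). At T0, where 46.9% of all genes tested were called, 8 of the 21 were higher in BT474R and 3 lower, the latter TEF (-0.35), CSNK1D (-0.20) and GSK3B (-0.14).

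Several members overlap another gene on the opposite strand, and since the strand setting of the counting is not given in the sources used here, reads from such a pair cannot be told apart in the overlap. THRA, which overlaps NR1D1 by 1075 bases, was at 133 to 191 CPM in BT474 and 99.3 to 168 CPM in BT474R. NR1D1 was far lower, at 0.744 to 2.54 CPM in BT474 and 2.56 to 8.05 CPM in BT474R. THRA had a log2 change of -0.43 in EGF-BT474R at 12 h, the comparison in which NR1D1 rose, and its part in the NR1D1 values was not tested. SPHK2, which overlaps DBP by 376 bases, rose by 1.08 with vehicle in BT474R at 24 h, the comparison in which DBP rose, with libraries at 27.2 and 15.8 CPM where those of DBP were at 7.70 and 12.2 CPM, and its part in the DBP value was not tested. BHLHE40-AS1 overlaps BHLHE40 by 525 bases and was at no more than 2.43 CPM in any library. SSPN overlaps BHLHE41 by 3047 bases and was at 5.82 to 9.54 CPM in BT474 and 2.97 to 5.49 CPM in BT474R, above BHLHE41 in each library, and was lower in BT474R at T0 (-0.49), as BHLHE41 was. NKIRAS1 overlaps NR1D2 by 1277 bases and passed the test with neither ligand. LOC112268433, which overlaps PER2 by 10878 bases, was at no more than 0.0824 CPM, and LOC124903833, which overlaps PER3, was not analysed here.

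Over the 20 group means of log2 CPM, centred within each line, the members correlated with each other from r = -0.72 to 0.79 (Pearson). The highest r was that of PER1 and NR1D2 (0.79), and BHLHE40 went with NR1D1 (0.74) and against NR1D2 (-0.65). PER1 and PER2 had r = 0.64, PER2 and BHLHE41 the lowest r of -0.72, and CRY1 and DBP r = -0.67. Among 12622 other genes the closest to PER2 were MEF2D (0.97) and NR4A1 (0.95), and to PER3 TEF (0.89) and C8orf58 (0.88). BHLHE40 was closest to MAP1B (0.96) and ENO1 (0.96), NR1D2 to BTD (0.96) and ABCA1 (0.94), and DBP to PAN2 (0.94) and KANSL1L (0.93). The closest to PER1 were EPPK1 (0.90) and C14orf28 (0.89), to CRY1 MESD (0.95) and TIMM23 (0.91), to CRY2 GPER1 (0.92) and GNPDA1 (0.91), to BHLHE41 MFAP1 (0.90) and ZNF395 (0.90), and to NR1D1 NADK (0.90) and PUDP (0.88). These r values describe 20 points, each the mean of 2 libraries and all scaled together, and the named genes are the highest of many compared.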

How the data were processed

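RNA of 40 libraries was analysed. The authors trimmed paired-end reads with Trim Galore 0.6.6, aligned them to GRCh38.p13 and counted them per gene with Rsubread, and the raw counts were deposited. The annotation release and the strand setting are not given in the sources used here. Counts were fitted in R 4.3.3 with edgeR 4.0.16 (quasi-likelihood F tests, TMM) on genes that had 1 count or more in at least 50% of the fitted libraries. P-values were adjusted by Benjamini-Hochberg over every gene tested, and 0.05 was the threshold. Each line was fitted with its 20 libraries (25146 genes in BT474, 24287 in BT474R), and the lines were compared in 1 fit of all 40 (24641 genes). The SE is the log2 fold change divided by the root of F. Alternatives were DESeq2 1.42.0, its size factors, other filters and fits, a replicate block and leaving out each library. The code was tested on simulated data. Lengths are merged GENCODE exons, and promoters and overlaps come from RefSeq (GRCh38.p14). A promoter was found for all 10 members. The members and lists were chosen with earlier results of these data known. All 10 members are named, and of the other clock genes up to 2 called per direction and comparison with a mean of at least 1 CPM, plus CLOCK and ARNTL. GSK3B, FBXW11, and some later values of named genes, were added after their values were seen. Results for some genes that this rule would name are not reported here.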

Additional observations from a re-analysis of the deposited data

Results flagged for a closer look

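The responses below differed between BT474 and BT474R by a test of the difference itself, as log2 differences with BT474R minus BT474. With vehicle against T0, at 12 h, PER2 differed by 0.45 ± 0.12 (SE, edgeR adjusted p = 0.045) and PER3 by 1.01 ± 0.12 (SE, edgeR adjusted p = 5.27e-07). At 24 h, PER1 differed by 1.08 ± 0.24 (SE, edgeR adjusted p = 0.00397), PER3 by 0.90 ± 0.12 (SE, edgeR adjusted p = 2.21e-06), NR1D1 by 1.35 ± 0.32 (SE, edgeR adjusted p = 0.00667), NR1D2 by 0.50 ± 0.12 (SE, edgeR adjusted p = 0.00482) and DBP by 1.11 ± 0.24 (SE, edgeR adjusted p = 0.00326). With HRG against vehicle at 12 h, NR1D2 differed by 0.45 ± 0.12 (SE, edgeR adjusted p = 0.0195). The NR1D2 difference with HRG was no longer called without any 1 of the 8 libraries it rests on. That of PER2 was lost without any 1 of 6 libraries or with a replicate block within each time point. That of NR1D2 with vehicle was lost without BT474R T0 replicate 1, and those of NR1D1 and DBP with the block. In tests with T0 the block leaves T0 to replicate 1. No group had enough libraries to look for single libraries far from the rest.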

How the results depend on the processing

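Of 340 tests of members, 79 were called, 56 of these under each alternative other than leaving out a library and 37 also without any 1 library. No called value changed sign, and 196 of 3288 alternative values of uncalled tests did. Counts of calls over the 3 time points moved as follows. In tests with T0, the block within each time point leaves T0 to replicate 1, so its counts there rest on fewer libraries. Vehicle against T0 in BT474 had 8 calls, but 4 with a replicate block within each time point, 5 with DESeq2 and 4 with 1 fit of both lines. In BT474R the 10 calls became 6 with that block and 17 with the libraries compared alone. HRG against EGF had 1 call in BT474, 0 with DESeq2 or 1 fit of both lines, and 2 in BT474R, 4 with no filter on low counts and 0 with the libraries compared alone. HRG-BT474R had 3, 6 with no filter and 5 with 1 fit of both lines. The EGF effect between lines had 0, 1 with no filter and 2 with the libraries compared alone, and the HRG effect 1, 7 with no filter, 6 with the libraries compared alone and 2 with the block within each time point. The vehicle course between lines had 7, 4 with that block and 13 with the libraries compared alone. The causes were not tested. Without 1 library, the ranges were 10 to 13 (EGF-BT474), 12 to 15 (HRG-BT474), 7 to 12 (EGF-BT474R), 0 to 5 (HRG-BT474R), 4 to 8 and 7 to 10 (vehicle against T0 in BT474 and BT474R), 0 to 2 and 1 to 3 (HRG against EGF), 7 to 9 (lines at T0), 0 to 1, 0 to 3 and 6 to 7 (EGF, HRG and vehicle between lines). The lowest count of EGF-BT474R, 7, came without EGF 12 h replicate 2, and the counts of 0 in HRG-BT474R without vehicle 12 h replicate 1 or HRG 12 h replicate 2. Where leaving out a library left a group with 1, that library was assumed to vary like the other groups.

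A replicate number names a library and pairs nothing that the labels state, with 2 pairs per comparison. The deviations of same-numbered libraries correlated between -0.15 and 0.46. With the number as a replicate block, EGF-BT474R had 12 calls, HRG-BT474R 4, HRG against EGF in BT474R 3 and the vehicle course between lines 9, and the other counts were as without it. Without TMM, 65 of 200 levels moved by more than the SD between replicates, and over all 200 the factor was 0.94 to 1.06. Depth limits NR1D1, DBP and BHLHE41 most.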
